A study of Mus musculus with 9 samples.

Results

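The miR-101 family was examined in mouse liver during thioacetamide (TAA) fibrosis and after TAA withdrawal. Its members were chosen by name, as every row of the miRNA table that starts with mmu-miR-101a-, mmu-miR-101b- or mmu-miR-101c. This gave 5 rows of 1140, which are both arms of mmu-miR-101a, both arms of mmu-miR-101b, and mmu-miR-101c. The family was proposed because earlier results of these data showed mmu-miR-101a-3p and mmu-miR-101b-3p to be lower under TAA and higher again after recovery. Their values in those comparisons are therefore a description, and no p-value is given for them there.

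All 9 animals were male C57BL/6 mice obtained at 8 weeks of age, and each liver gave 1 small RNA library. The control group (n = 3) received intraperitoneal normal saline for 8 weeks. The TAA group (n = 3) received TAA, a hepatotoxic compound that causes fibrosis, over the same 8 weeks. The recovery group (n = 3) received the same TAA course and was then kept without TAA for 8 more weeks. Recovery mice were killed later than the others, so recovery and elapsed time cannot be told apart. Control and TAA mice were killed days after the last injection, so fibrosis and recent TAA exposure cannot be told apart under TAA. Whole liver was sequenced, so fewer cells of a type and less RNA per cell cannot be told apart either.

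MicroRNAs are short RNAs that guide Argonaute proteins to messenger RNAs. The seed, near the 5′ end of the miRNA, pairs with sites that lie mostly in 3′ untranslated regions (UTRs), and the bound messenger is translated less or degraded. The miR-101 family is best known for targeting Ezh2, the catalytic subunit of the polycomb complex that methylates histone H3 on lysine and keeps genes silent. In liver, miR-101 is known for its low level in hepatocellular carcinoma.

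The mature sequences are shown because the members differ mostly in where the molecule starts, which moves the seed. They are written 5′ to 3′ from RefSeq, and capitals mark bases 2 to 8, the seed.
mmu-miR-101a-3p: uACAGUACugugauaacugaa
mmu-miR-101b-3p: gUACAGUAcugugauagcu
mmu-miR-101c: aCAGUACUgugauaacuga
mmu-miR-101a-5p: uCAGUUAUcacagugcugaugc
mmu-miR-101b-5p: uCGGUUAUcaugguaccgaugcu

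Relative to mmu-miR-101a-3p, the registered mmu-miR-101b-3p started 1 base earlier. Over the 18 bases that the sequences share, 17 were identical, and the substitution was A16G, counted from the 5′ end of mmu-miR-101a-3p. mmu-miR-101c was identical to mmu-miR-101a-3p over all of its 19 bases and started 1 base later. The registered seeds of these 3 molecules were thus all different, although they read nearly the same stretch. A count table holds no read ends, so the 5′ ends that were present in these livers are not known from it. How reads that match several of these sequences were assigned was not stated, so the split between mmu-miR-101a-3p, mmu-miR-101b-3p and mmu-miR-101c is uncertain.

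The members come from separate loci (GRCm38, GENCODE M21). mmu-miR-101a-3p maps to the minus strand at chr4:101346957-101346977. Its hairpin, Mir101a, lies in an exon of the long noncoding RNA gene E130102H24Rik on the same strand. mmu-miR-101b-3p maps to the plus strand at chr19:29135338-29135356, and its hairpin, Mir101b, lies in an intron of Rcl1, a gene for a protein of ribosomal RNA processing, on the same strand. mmu-miR-101c maps to the minus strand at chr9:3038680-3038698, where the hairpin Mir101c overlaps no other annotated gene. No other annotated miRNA gene lay within 10 kb of any of them, with 0 found at each locus.

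The longest annotated Ezh2 3′ UTR (402 bases) was searched for the complement of each registered seed, because Ezh2 is the best known target. The match to the mmu-miR-101a-3p seed is GTACTGT and the match to the mmu-miR-101b-3p seed is TACTGTA. The sites are written 5′ to 3′ on the strand of the Ezh2 messenger, with the matching bases in capitals.
Ezh2 site 1: ggaaccttgaGTACTGTgggcaattta
Ezh2 site 2: aatttgcaaaGTACTGTAacagtaattt

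The letters GTACTGT occurred 2 times in this UTR, and TACTGTA occurred 1 time, in site 2, where it overlaps the other match. Among 15285 genes whose 3′ UTR was cut to the same length, 2.71% held GTACTGT and 3.33% held TACTGTA. These are letter matches on the messenger strand only, and Ezh2 messenger levels were not analysed here.

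Library totals lay between 9071847 and 12983378 counts. The 4 hepatocyte markers fixed for the check (mmu-miR-122-5p, mmu-miR-192-5p, mmu-miR-194-5p and mmu-miR-148a-3p) summed to between 242401 and 408780 of deposited TPM, so the defining miRNAs of liver parenchyma were present in every sample. TPM here is the count per 1000000 counts of the sample, with no length term. Levels are given below as counts per 1000000 scaled by TMM factors (TMM-scaled CPM) and as deposited TPM, because the scaling matters in these libraries. TMM factors were 0.738 to 0.792 among controls, 1.43 to 1.63 under TAA and 0.766 to 0.887 after recovery. With library totals in place of TMM, the median log2 fold change of all tested miRNAs in TAA vs control moved from 0.11 to 1.23, and in recovery vs TAA it moved from -0.12 to -0.98.

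mmu-miR-101b-3p was the most abundant member. In TMM-scaled CPM it was at 12720.5, 10815 and 9288 in control replicates 1 to 3, at 3690, 3252 and 2833 under TAA and at 8777, 8814 and 8745 after recovery. All TAA samples lay below all samples of both other groups, and the recovery samples lay close together just below the lowest control sample. In deposited TPM the same libraries gave 10076, 7986 and 7013 among controls, 5286, 5311 and 4605 under TAA and 6725, 7820 and 7660 after recovery. The TAA samples were again the lowest, while control and recovery overlapped. Within each sample the row ranked 12 to 13 by count among controls, 17 to 20 under TAA and 13 after recovery.

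mmu-miR-101a-3p was at a lower level throughout. Its TMM-scaled CPM was 3909, 2738 and 2370 among controls, 1444, 926.5 and 994.9 under TAA and 2650, 3016 and 2326 after recovery. On this scale the TAA samples did not overlap with the others, and control replicate 1 stood above the remaining samples. In deposited TPM the values were 3097, 2022 and 1789.5 among controls, 2068, 1513 and 1617 under TAA and 2029.9, 2676 and 2038 after recovery. Here TAA replicate 1 lay inside the range of both other groups, so all 3 groups overlapped. The counts behind these values ran from 13727 to 40206 for mmu-miR-101a-3p and from 42208 to 130820 for mmu-miR-101b-3p. Counting error was below 1% of the summed count in each group, so the spread between mice set the precision.

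**Figure D1:**
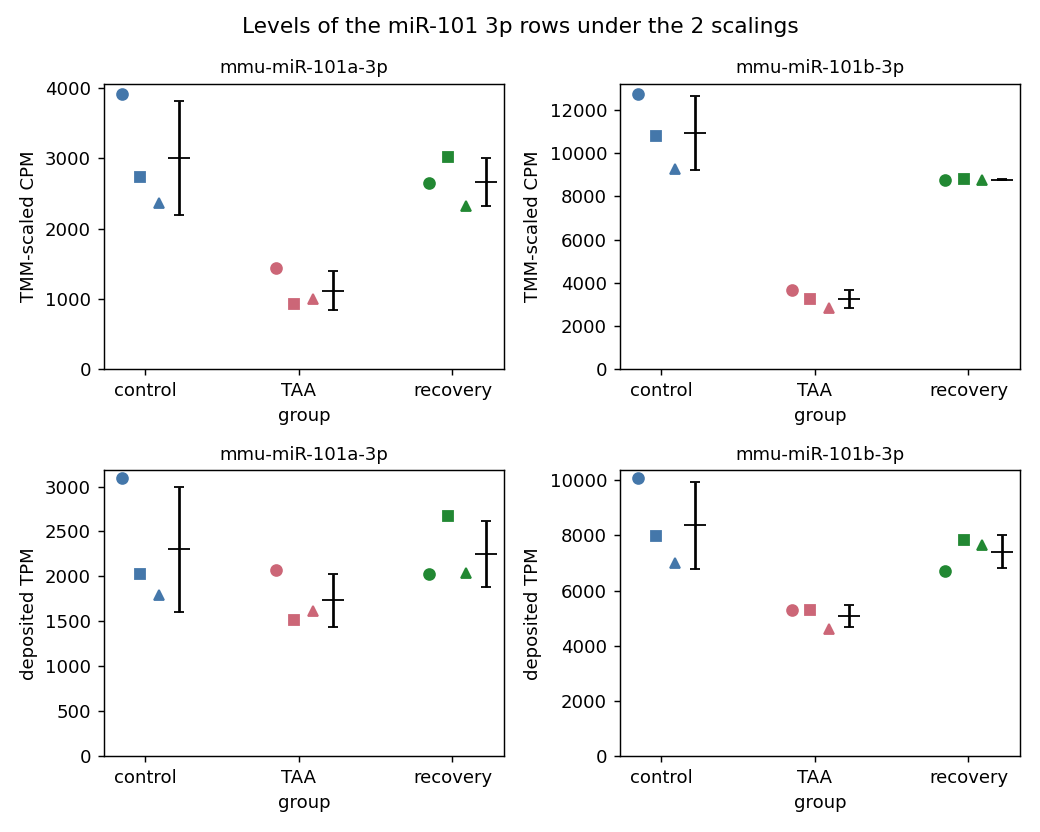
Level of mmu-miR-101a-3p (left) and mmu-miR-101b-3p (right) in each of the 9 livers by group, as TMM-scaled CPM (top) and deposited TPM (bottom). Points are samples (circle, square and triangle for replicates 1 to 3) and black bars are mean ± SD (n = 3). The TAA samples are lowest without overlap in 3 panels, and in the TPM panel of mmu-miR-101a-3p the groups overlap.

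The first comparison, TAA vs control, addressed the fibrotic liver. The mean of mmu-miR-101b-3p was 10941 ± 1720 TMM-scaled CPM (SD, n = 3) among controls and 3258 ± 428 under TAA. Its log2 fold change was -1.84 (SE 0.15, 95% interval -2.20 to -1.48). For mmu-miR-101a-3p the means were 3006 ± 804 and 1122 ± 281, with a log2 fold change of -1.52 (SE 0.23, 95% interval -2.07 to -0.98). With mmu-miR-101a-3p, mmu-miR-101b-3p and mmu-miR-101c summed to 1 row (the summed 3p row), the log2 fold change was -1.77 (SE 0.16). This sum does not depend on how reads were split between the rows, provided that each read was counted once.

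Differentially expressed miRNAs (DEMs) had a false discovery rate (FDR) below 0.05 by edgeR's quasi-likelihood test and a fold change of at least 2. Both 3p rows met these criteria as lower in TAA, as did 16.7% of the 420 miRNAs tested, and 25.0% were DEMs in the other direction. Both were without overlap between the groups on the TMM scale, as were 27.4% of the tested miRNAs with TAA lower. Since the members were selected on this contrast, nothing is read from these counts.

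The size of the fall depended on the scaling. With library totals the log2 fold change was -0.72 (SE 0.15) for mmu-miR-101b-3p, -0.41 (SE 0.23) for mmu-miR-101a-3p and -0.65 (SE 0.16) for the summed row, and 0 of the 2 rows were DEMs. Under library totals 0.952% of the tested miRNAs were DEMs with TAA lower, and 6.19% had TAA samples below all control samples. mmu-miR-101b-3p was among the latter and mmu-miR-101a-3p was not. A change of scaling shifts all log2 fold changes of a comparison by nearly the same amount. The place of the rows among all tested miRNAs was therefore the same under both scalings, which is no check on the fall. Of 420 tested miRNAs, 15 had a lower log2 fold change than mmu-miR-101b-3p and 30 had a lower one than mmu-miR-101a-3p. Among the 33 tested miRNAs with a mean of at least 1000 TMM-scaled CPM, 2 and 5 were lower.

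Recovery was compared with TAA to describe the livers after withdrawal. mmu-miR-101b-3p stood at 8779 ± 34.8 TMM-scaled CPM (SD, n = 3) after recovery, a log2 fold change of 1.41 (SE 0.12) over TAA. mmu-miR-101a-3p stood at 2664 ± 345, a log2 fold change of 1.24 (SE 0.19). The summed 3p row had a log2 fold change of 1.37 (SE 0.13). Both rows were DEMs with recovery higher, beside 10.2% of the 440 miRNAs tested, and 14.5% were DEMs with recovery lower. Recovery samples lay above all TAA samples in 24.5% of the tested miRNAs on the TMM scale, both 3p rows included. These values share the TAA samples with the preceding comparison.

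With library totals the log2 fold changes in recovery vs TAA were 0.55 (SE 0.13) for mmu-miR-101b-3p, 0.38 (SE 0.18) for mmu-miR-101a-3p and 0.50 (SE 0.13) for the summed row. Neither 3p row was a DEM, where 0.909% of the tested miRNAs were DEMs with recovery higher. On deposited TPM 6.14% of the tested miRNAs had recovery samples above all TAA samples, and mmu-miR-101b-3p was one of them. On the TMM scale 22 of 440 tested miRNAs had a higher log2 fold change than mmu-miR-101b-3p and 35 had a higher one than mmu-miR-101a-3p. Among the 33 abundant miRNAs, 2 and 4 were higher.

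Recovery was also compared with control, to ask whether the levels differed 8 weeks after the last TAA injections. Of the 4 family rows tested, 0 were DEMs, beside 11.3% of the 391 miRNAs tested. For mmu-miR-101b-3p the log2 fold change was -0.36 (SE 0.12) with an FDR of 0.089 by edgeR's quasi-likelihood test. The FDR passed 0.05 without control replicate 3 (0.0277), with upper-quartile factors (0.0406) and with no filter on low counts (0.0166), at a fold change below 2 in each, and it was 0.0826 to 0.559 under the other alternatives of edgeR, DESeq2 and limma. Its recovery samples lay below all control samples on the TMM scale, as did those of 9.97% of the tested miRNAs, but not on deposited TPM. Of the 391 tested miRNAs, 49 had a lower log2 fold change in this comparison, and of the 33 abundant miRNAs 0 did. For mmu-miR-101a-3p the log2 fold change was -0.22 (SE 0.17, 95% interval -0.60 to 0.17, FDR 0.58), and the groups overlapped. The summed row gave -0.32 (SE 0.13, FDR 0.17), and without control replicate 3 it gave -0.46 (FDR 0.0421, edgeR). Without control replicate 1, the log2 fold change of mmu-miR-101a-3p was 0.018, so its direction rested on that sample.

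**Figure D2:**
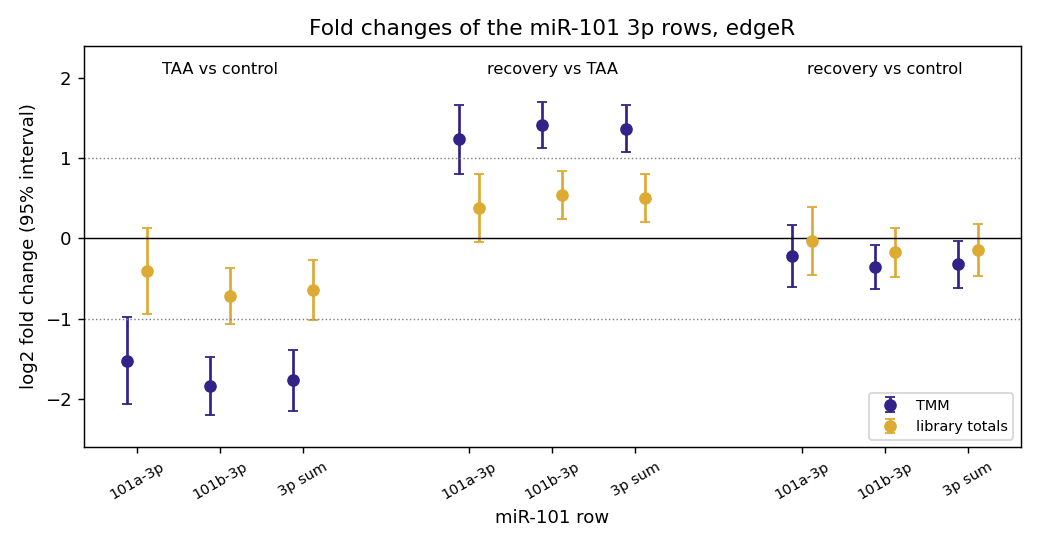
Log2 fold change of mmu-miR-101a-3p, mmu-miR-101b-3p and the summed 3p row (with mmu-miR-101c) in the 3 comparisons from edgeR. Values are shown with 95% intervals, under TMM scaling (dark) and library totals (yellow). Dotted lines mark a fold change of 2 in either direction. For TAA vs control the TMM values lie between -1.84 and -1.52 and those under library totals between -0.72 and -0.41.

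The ratio of mmu-miR-101b-3p to mmu-miR-101a-3p within a sample needs no scaling. The ratio itself was not used to choose the family, but both of its rows were chosen on TAA vs control and recovery vs TAA. It was 3.25, 3.95 and 3.92 among controls, 2.56, 3.51 and 2.85 under TAA and 3.31, 2.92 and 3.76 after recovery. mmu-miR-101b-3p was higher than mmu-miR-101a-3p in all 9 livers, and the ratios of the groups overlapped. The mean log2 ratio was 1.88 ± 0.16 (SD, n = 3) among controls, 1.56 ± 0.23 under TAA and 1.73 ± 0.18 after recovery. The difference was -0.33 (SE 0.16) for TAA vs control and 0.17 (SE 0.17) for recovery vs TAA, given without a p-value for that reason. For recovery vs control it was -0.16 (SE 0.14, exact two-sided permutation p = 0.3, and 0.4 when adjusted over the 3 comparisons). The smallest p that 3 samples against 3 allow is 0.1, so this test could not have passed 0.05.

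Arm use was strongly one-sided. Of the reads of both mmu-miR-101a arms, the 5p arm held 0.0393% among controls (31 of 78799 counts, exact binomial 95% interval 0.0267% to 0.0558%). It held 0.0423% under TAA (22 of 51982, 0.0265% to 0.0641%) and 0.0421% after recovery (35 of 83061, 0.0294% to 0.0586%). These intervals overlap widely, and they cover counting error only. The mean log2 ratio of the 3p to the 5p count (pseudocount 0.5) was 11.22 ± 0.12 (SD, n = 3), 11.09 ± 0.16 and 11.35 ± 0.97 in the same order. The differences were -0.13 for TAA against control and 0.27 for recovery against TAA, given without a p-value because the 3p row was chosen on these contrasts. For recovery vs control the difference was 0.14 (exact two-sided permutation p = 1.0, also 1.0 when adjusted over the 6 arm comparisons). With 3 samples against 3 this test could not have passed 0.05 either. Leaving out recovery replicate 3, which had 4 counts of the 5p arm, turned the recovery differences to -0.29 and -0.41.

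The 5p arm of mmu-miR-101b was at the edge of detection. It had 3 counts in all, 2 in TAA replicate 1 and 1 in recovery replicate 2, among 706345 counts of both arms. In the control group 0 of 282574 counts came from the 5p arm, which allows a share of up to 0.00106% by the limit of 3 counts, with an upper end of 0.001305% for the exact binomial 95% interval. Its arm ratio rests on the pseudocount, and no difference between groups is read from it.

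mmu-miR-101c, which could also take reads of mmu-miR-101a-3p, had 16, 5 and 7 counts among controls, 2, 7 and 6 under TAA and 16, 14 and 5 after recovery. The 5p arm of mmu-miR-101a had 15, 9 and 7, then 9, 6 and 7, then 15, 16 and 4 counts. The raw counts of both rows overlapped between all groups. In TMM-scaled CPM the TAA samples lay below all control samples for both, at 0.405 to 0.555 against 0.932 to 1.46 for mmu-miR-101a-5p and at 0.123 to 0.472 against 0.660 to 1.56 for mmu-miR-101c, and in deposited TPM they overlapped. Neither row passed the filter on low counts in TAA vs control or in recovery vs TAA, and mmu-miR-101b-5p passed it in no comparison. In recovery vs control the log2 fold change was 0.02 (SE 0.54, FDR 0.99) for mmu-miR-101c and -0.14 (SE 0.52, FDR 0.936) for mmu-miR-101a-5p. The 95% intervals, -1.18 to 1.22 and -1.29 to 1.01, leave room for differences of more than 2 fold in either direction. In a single fit of all 9 samples mmu-miR-101a-5p and mmu-miR-101c passed the filter, but only through control and recovery libraries. The log2 fold changes of mmu-miR-101c in the other comparisons were -1.68 and 1.76, at 2 to 16 counts per library. Both met the DEM criteria, beside 187 and 115 DEMs of 440 tested miRNAs. Since both rows were let in by the groups where they were higher, nothing is read from their comparisons with TAA in this fit.

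**Figure D3:**
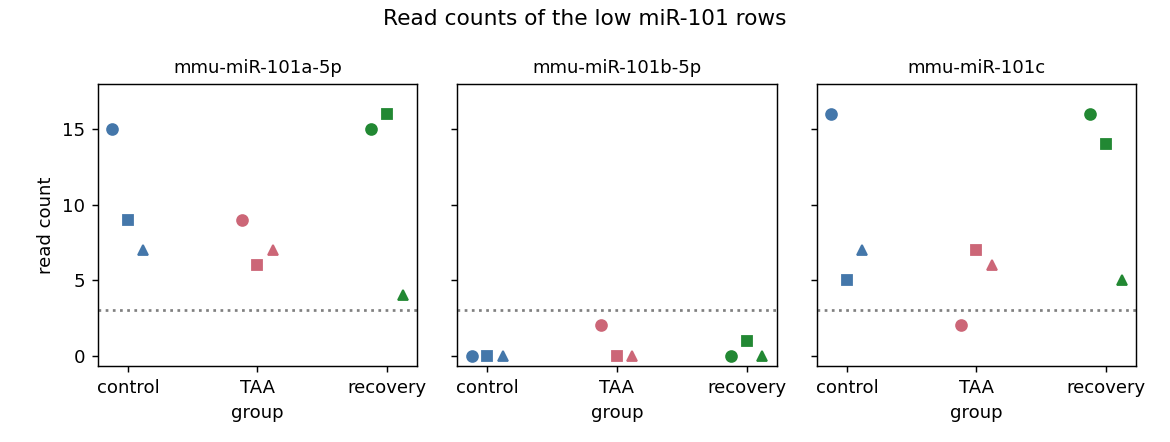
Read counts of mmu-miR-101a-5p, mmu-miR-101b-5p and mmu-miR-101c in each library by group; symbols stand for replicates 1 to 3. The dotted line marks 3 counts. No library exceeds 16 counts in any panel, and mmu-miR-101b-5p has at most 2.

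The hepatocyte markers moved in the same direction as the 3p rows. Summed over the 4 markers, their level was 516068 to 534696 TMM-scaled CPM among controls, 149154 to 178031 under TAA and 426802 to 508592 after recovery. In deposited TPM it was 389932 to 408780, 242401 to 257553 and 378683 to 389650. All 4 were DEMs with TAA lower, beside 16.7% of all tested miRNAs, with log2 fold changes of -1.96 for mmu-miR-122-5p, the dominant miRNA of hepatocytes, -1.58 for mmu-miR-192-5p, -1.42 for mmu-miR-194-5p and -1.64 for mmu-miR-148a-3p. All 4 were DEMs with recovery higher than TAA, beside 10.2%, with log2 fold changes of 1.68, 1.20, 1.12 and 1.35. Library totals gave smaller values for the same markers, -0.84, -0.46, -0.29 and -0.52 for TAA against control, then 0.80, 0.33, 0.25 and 0.50 for recovery against TAA, with 0 of the 4 as DEMs, beside 0.952% and 0.909%. In recovery vs control 0 of the 4 were DEMs under TMM, beside 11.3%. Their part in the miR-101 values was not tested.

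The biliary and leukocyte markers were highest under TAA on both scales, unlike the 3p rows. The 5 biliary epithelial markers, of the miR-200 family, summed to 582 to 764 TMM-scaled CPM among controls, 3331 to 5534 under TAA and 1240 to 1415 after recovery. The 5 leukocyte markers summed to 190 to 211, 274 to 319 and 146 to 222. In TAA vs control under TMM, mmu-miR-155-5p (log2 fold change 1.65) and mmu-miR-223-3p (1.15) were DEMs with TAA higher. mmu-miR-142a-3p (0.65), mmu-miR-142a-5p (0.30) and mmu-miR-150-5p (0.74) were not, beside the 25.0% over all tested miRNAs. The sum of the 5 stellate cell and fibroblast markers, at 25481 to 31110, 18031 to 39498 and 21870 to 35801, overlapped between the groups and was set by mmu-miR-143-3p, whose mean was 27786 among controls. By edgeR's quasi-likelihood test 3 of the 5 were DEMs with TAA higher, beside the 25.0% over all tested miRNAs: mmu-miR-199a-3p (log2 fold change 1.66), mmu-miR-199a-5p (1.44) and mmu-miR-214-3p (2.003). The same 3 were DEMs with recovery lower than TAA (-1.23, -1.28 and -1.64), beside 14.5%, and for mmu-miR-143-3p the values were -0.02 and -0.11. The 3 red cell markers summed to 789 to 1339, 206 to 461 and 329 to 622. Under TMM mmu-miR-451a was a DEM with TAA lower than control (log2 fold change -1.71), beside 16.7% of all tested miRNAs. mmu-miR-486a-5p (-0.98) and mmu-miR-144-3p (-1.01) were not. On deposited TPM the red cell markers overlapped between TAA and control, at 337 to 750 and 583 to 1011, and the summed stellate cell markers were higher under TAA (29450 to 64191) than in any control sample (19241 to 24643). In all 5 lists 0 marker rows were without counts, and the part of these cells in the miR-101 values was not tested.

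Each 3p row was then set against each hepatocyte marker within a sample, a comparison added after the data were seen. Since the 3p rows were chosen on TAA vs control and recovery vs TAA, their ratios in these are given without a p-value. mmu-miR-101b-3p amounted to 4.68%, 4.05% and 3.55% of mmu-miR-122-5p among controls, to 4.97%, 4.65% and 3.85% under TAA and to 2.79%, 4.60% and 4.25% after recovery. The groups overlapped in every comparison. The log2 difference in this ratio was 0.13 (SE 0.16) for TAA vs control, -0.24 (SE 0.25) for recovery vs TAA and -0.10 (SE 0.25, exact permutation p = 0.8) for recovery vs control.

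For mmu-miR-101a-3p the same differences against mmu-miR-122-5p were 0.46 (SE 0.27), -0.41 (SE 0.32) and 0.05 (SE 0.33, exact permutation p = 0.8), and the groups overlapped. Against mmu-miR-192-5p, mmu-miR-101b-3p was at 12.7%, 10.7% and 9.77% among controls, 9.76%, 9.17% and 8.98% under TAA and 10.7%, 11.5% and 10.3% after recovery. Here the TAA samples were lowest without overlap, the nearest control sample by a narrow margin. The log2 difference was -0.24 (SE 0.12) for TAA against control and 0.22 (SE 0.06) for recovery against TAA. In the other ratio comparisons the groups overlapped, and in recovery vs control every p was 0.9 when adjusted over the 24 comparisons computed. The smallest exact p of 3 samples against 3 is 0.1, so none of these could have passed 0.05, and no absence of a difference is read from them.

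**Figure D4:**
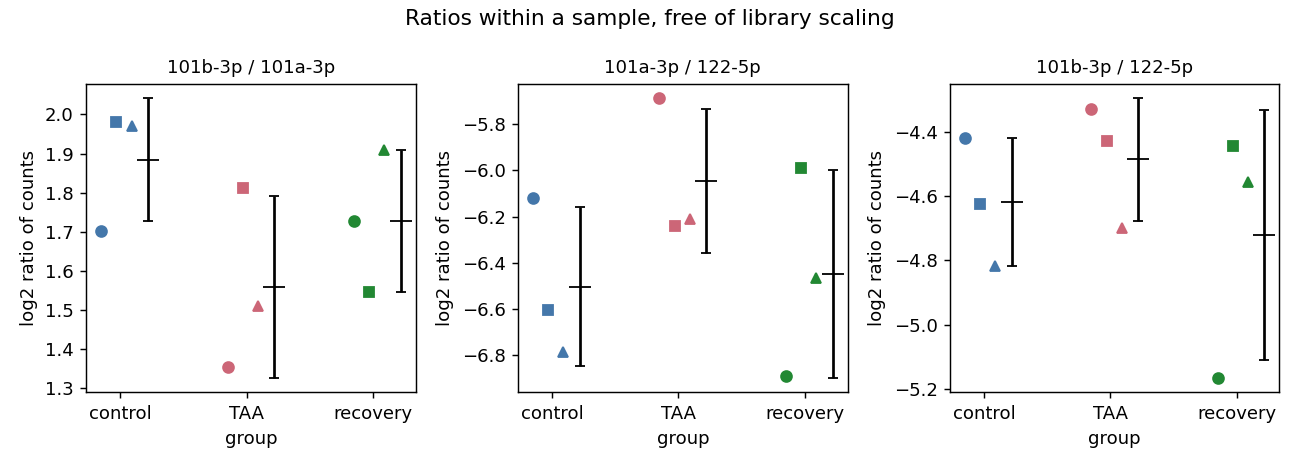
Log2 ratio of counts within each sample, for mmu-miR-101b-3p to mmu-miR-101a-3p (left), mmu-miR-101a-3p to mmu-miR-122-5p (middle) and mmu-miR-101b-3p to mmu-miR-122-5p (right), by group. Points are samples and black bars are mean ± SD (n = 3); the vertical axes do not start at 0. The groups overlap in all 3 panels.

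Other miRNAs known to target Ezh2 were taken from a list of 16, of which 13 passed the filter. The list holds mmu-miR-26a-5p and mmu-miR-26b-5p, the let-7 family with mmu-miR-98-5p, and mmu-miR-138-5p, mmu-miR-214-3p, mmu-miR-124-3p, mmu-miR-137-3p and mmu-miR-217-5p. In TAA vs control 1 of the 13 was a DEM with TAA higher and 2 were DEMs with TAA lower, beside 25.0% and 16.7% of all tested miRNAs. The median log2 fold change of the list was -0.46, beside 0.11 over all tested miRNAs. In recovery vs TAA 1 was a DEM with recovery higher and 1 with recovery lower, beside 10.2% and 14.5%, and the median was 0.37, beside -0.12. In recovery vs control 0 were DEMs, beside 11.3%, and the median was -0.03, as over all miRNAs.

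mmu-miR-137-3p, an miRNA best known from neurons, had 89, 52 and 32 counts among controls, 30, 15 and 35 under TAA and 40, 64 and 38 after recovery. It fell in TAA by 2.02 on the log2 scale (SE 0.40, FDR 0.00395) and was 1.37 higher in recovery than in TAA (SE 0.37, FDR 0.0221), by edgeR's quasi-likelihood test. Its TAA and control samples did not overlap in TMM-scaled CPM (1.01 to 2.35 against 4.26 to 8.65) but did in raw counts, and under library totals it was not a DEM in either comparison. Without recovery replicate 2 its log2 fold change in recovery vs TAA was 1.16 and it was no longer a DEM (FDR 0.077, edgeR). mmu-let-7g-5p, a member of the let-7 family, was at 13252, 14550 and 14886 TMM-scaled CPM among controls and at 7282, 6916 and 6480 under TAA. With TMM it fell by 1.13 on the log2 scale (SE 0.08, FDR 0.000104), with a filter of at least 10 CPM it fell by 0.93 and was no DEM, and with library totals the value was -0.01. The let-7 rows are near-identical in sequence, so their single values are uncertain.

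mmu-miR-214-3p, which is also one of the stellate cell markers, went the other way. It was at 15.4, 13.1 and 18.5 TMM-scaled CPM among controls, 68.0, 65.3 and 66.2 under TAA and 20.1, 21.9 and 22.8 after recovery. It rose in TAA by a log2 fold change of 2.003 (SE 0.17, FDR 0.000114) and fell in recovery vs TAA by 1.64 on the log2 scale (SE 0.15, FDR 0.000283), by edgeR's quasi-likelihood test. It was a DEM in the same direction under library totals. With TMM, mmu-miR-26a-5p, one of the most abundant of the list, had log2 fold changes of -0.76 under TAA and of 0.78 from TAA to recovery, and mmu-miR-26b-5p of -0.87 and 0.80. In deposited TPM the means of both were instead highest under TAA. They were 20368, 26247 and 24605 in control, TAA and recovery for mmu-miR-26a-5p, and 1920, 2280 and 2181 for mmu-miR-26b-5p. Neither was a DEM.

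With library totals the called members of the list changed. In TAA vs control 3 were DEMs with TAA higher (mmu-miR-214-3p, mmu-let-7e-5p and mmu-let-7i-5p), beside 57.4% of all tested miRNAs, and 0 were lower. In recovery vs TAA the same 3 names were DEMs with recovery lower, beside 46.1% of all tested miRNAs, and 0 were higher. The list medians were 0.66 and -0.49, against 1.23 and -0.98 over all tested miRNAs.

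**Figure D5:**
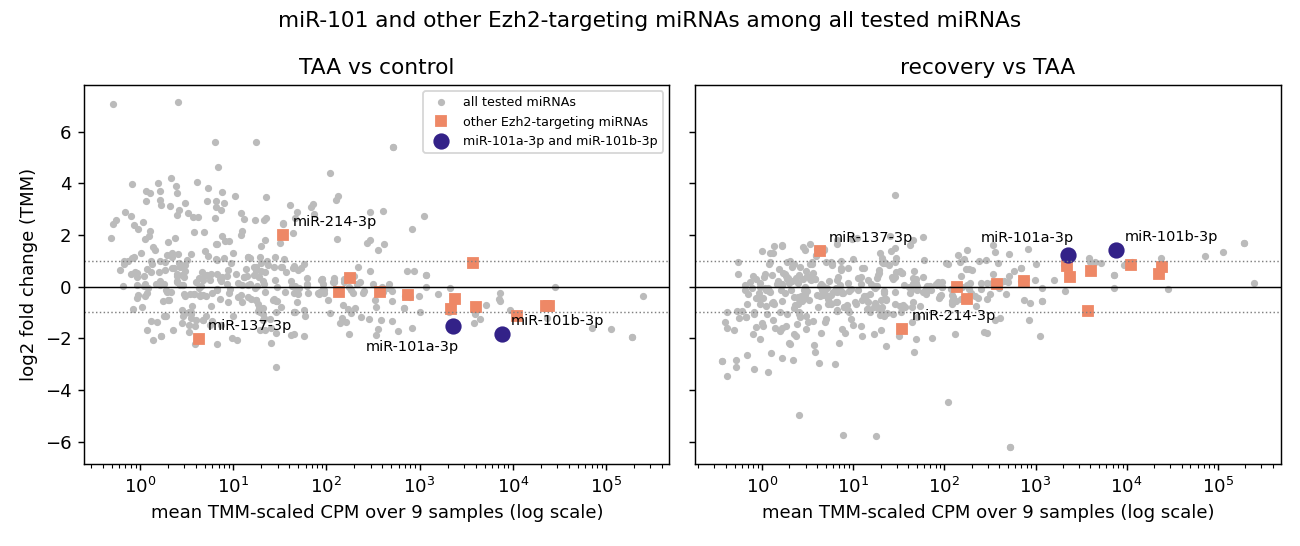
Log2 fold change (TMM scaling) against mean TMM-scaled CPM over 9 samples on a log axis, for each miRNA tested in TAA vs control (left) and recovery vs TAA (right). Grey points are all tested miRNAs, orange squares the 13 tested miRNAs of the Ezh2 list and dark circles the miR-101 3p rows, at -1.52 and -1.84 on the left and 1.24 and 1.41 on the right. Dotted lines mark a fold change of 2.

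mmu-miR-144-3p was the only row outside the family, of 935 rows matched to RefSeq, that shared bases 2 to 7 with mmu-miR-101a-3p. It is an erythroid miRNA, and its sequence is given to show the shared seed bases.
mmu-miR-144-3p: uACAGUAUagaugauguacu

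It had 75, 16 and 31 counts among controls, 38, 19 and 54 under TAA and 7, 41 and 18 after recovery. The counts overlapped between all groups. Its log2 fold changes were -1.01 for TAA against control (SE 0.53, FDR 0.14), -0.23 for recovery against TAA (FDR 0.779) and -1.18 in recovery vs control (FDR 0.246), by edgeR's quasi-likelihood test, and it was not a DEM in any of them. With library totals the value for TAA against control was 0.10 (SE 0.55, FDR 0.877, edgeR), opposite in sign.

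The miRNAs with the most similar pattern over the 9 samples were found by Pearson's r of log2(TMM-scaled CPM + 1) among 224 other miRNAs with a mean of at least 10 CPM. For mmu-miR-101b-3p they were mmu-miR-1843a-5p (r = 0.991), mmu-miR-192-5p (0.991), mmu-miR-1843b-5p (0.984), mmu-miR-203b-5p (0.983) and mmu-miR-203-3p (0.982). For mmu-miR-101a-3p they were mmu-miR-29b-3p (0.976), mmu-miR-203-3p (0.975), mmu-miR-101b-3p (0.967), mmu-miR-1948-5p (0.964) and mmu-miR-203b-5p (0.959). These points share libraries, scaling factors and group differences, so r is a description of likeness. With deposited TPM, a setting added after the data were seen, 4 of the 5 names remained among the first 5 for each row. mmu-miR-1843b-5p dropped to rank 25 (r = 0.528) and mmu-miR-29b-3p to rank 6, and r between the 3p rows was 0.798.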

How the data were processed

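Small RNA libraries of 9 mouse livers, 3 per group, were compared, with groups taken from the sample labels. Per the study's methods, reads were mapped with Bowtie (1.3.0) to the mouse genome (mm10) and to miRBase. The authors deposited a raw read count and a TPM for each miRNA. The deposited TPM equalled the count per 1000000 counts of the sample, with a largest difference of 5e-05. A change in abundant miRNAs therefore shifts every TPM.

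Counts were tested with edgeR 4.0.16 (R 4.3.3) on the whole table: TMM scaling, filterByExpr with a minimum count of 10, the quasi-likelihood F test on the 6 samples of each comparison, and Benjamini-Hochberg adjustment. The SE is the size of the log2 fold change divided by the square root of F. The authors' methods used DESeq2, run here as an alternative (1.42.0), and limma 3.58.1 was run on log2(TPM + 1). Within-sample log2 ratios were compared by exact two-sided permutation tests. The procedure was run on simulated counts with changes balanced in both directions, which does not test the choice of scaling for these libraries. Named miRNAs were the family, the Ezh2 list, markers, rows sharing the seed and the 5 most similar patterns per 3p row. The members and lists were chosen with earlier results of these data known. Sequences came from RefSeq (GRCm38.p6), with all 5 family rows matched. Samples with the same replicate number are different mice, and the edgeR tests set a group difference against the spread between mice within groups. The mRNA libraries were not analysed here.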

Additional observations from a re-analysis of the deposited data

How the results depend on the processing

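Scaling moved the 3p rows most in TAA vs control and recovery vs TAA. With library totals the log2 fold changes of mmu-miR-101a-3p were -0.41 and 0.38 in TAA vs control and recovery vs TAA, those of mmu-miR-101b-3p were -0.72 and 0.55, and those of the summed 3p row were -0.65 and 0.50, and none of these was a DEM. limma on log2(TPM + 1) gave -0.38 and 0.38 for mmu-miR-101a-3p and -0.71 and 0.55 for mmu-miR-101b-3p, also no DEMs. On library totals the mean CPM of mmu-miR-101a-3p was 1733 in TAA and 2248 in recovery, and that of mmu-miR-101b-3p was 8359, 5067 and 7402 in control, TAA and recovery. In recovery vs control, mmu-miR-101a-5p had 0.0365 (library totals) and mmu-miR-101c had -0.12 (upper-quartile factors), opposite in sign to the main values. The cause was not tested.

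Over all miRNAs there were 175, 109 and 44 DEMs in the 3 comparisons. With a filter of at least 10 CPM, which tests fewer miRNAs, there were 85, 60 and 13, and mmu-let-7g-5p was no longer a DEM in TAA vs control. Library totals gave 207 in recovery vs TAA. With upper-quartile factors 5 of the 13 tested miRNAs of the Ezh2 list were DEMs in TAA vs control, against 3 with TMM. The share over all tested miRNAs was not counted under these factors, so nothing is read from this. Leaving out each replicate in turn, the log2 fold change of mmu-miR-101a-3p ran from -1.69 to -1.28 and from 1.16 to 1.49 in the first comparisons, and that of mmu-miR-101b-3p from -1.96 to -1.71 and from 1.34 to 1.55, with every call kept. In recovery vs control they ran from -0.48 to -0.24 for mmu-miR-101b-3p, with an FDR of 0.0277 without control replicate 3 (edgeR), from -0.38 to 0.0179 for mmu-miR-101a-3p, from -0.42 to 0.28 for mmu-miR-101a-5p and from -0.33 to 0.46 for mmu-miR-101c. The arm ratio of mmu-miR-101a ran from -0.29 to 0.62 in recovery vs TAA and from -0.41 to 0.49 in recovery vs control. The DEMs of the Ezh2 list in recovery vs TAA ran from 1 to 2, with 1 without recovery replicate 2.

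Replicate numbers are shared by the titles, but the mice differ, and deviations of samples with the same number correlated between -0.415 and 0.378. With the replicate number as a block, the log2 fold changes were -1.504, 1.25 and -0.19 for mmu-miR-101a-3p and -1.83, 1.42 and -0.34 for mmu-miR-101b-3p, and no call of the 3p rows changed. In the fit of all 9 samples, mmu-miR-101a-5p and mmu-miR-101c passed the filter. There mmu-miR-101c was a DEM in TAA vs control (-1.68) and recovery vs TAA (1.76), on 2 to 16 counts per library. Without recovery replicate 3, mmu-miR-101c and mmu-miR-101a-5p were tested against TAA and called DEMs, among 112 DEMs of 468 tested miRNAs. Only the recovery libraries kept in that fit held at least 10 counts of either row, at 14 to 16 against 2 to 9 under TAA. Both rows were thus let in by the group where they were higher, and nothing is read from these calls. Counts of 16 or fewer per library limit what can be said of mmu-miR-101a-5p, mmu-miR-101b-5p and mmu-miR-101c.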
